A study of Drosophila melanogaster with 2 samples.

Results

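The odd-skipped family of Drosophila melanogaster consists of odd-skipped (odd), sister of odd and bowl (sob), drumstick (drm) and brother of odd with entrails limited (bowl). These 4 genes, of 13945 protein-coding genes, were chosen by name, with earlier results of the same peak lists known. Their peaks were selected on summit position: inside a gene, within 5 kb of one, or anywhere between drm, sob and odd, which neighbour each other on chromosome arm 2L. This rule took 25 of the 8483 peaks in the most stringent list, so the presence of peaks near these genes is a description and no test was made of it.

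The proteins are C2H2 zinc-finger transcriptional regulators. Odd-skipped is a pair-rule repressor of embryonic segmentation, and Bowl and Drumstick pattern the foregut and hindgut. Drumstick is a short protein that binds Lines, a protein that otherwise inhibits Bowl, and in the growing leg the family acts downstream of Notch signalling where joints form.

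ChIP-seq, in which DNA bound by a protein is precipitated with it and sequenced, was the assay. Whole pupae aged 24 hours, males and females together, came from 1 transgenic fly line that stably carried CG15710 with GFP at its C-terminus; CG15710 is a protein known by its annotation number, and the precipitating antibody was directed against GFP. The samples formed 1 group of 2 biological replicates, which the labels number 1 and 3, and no control group was analysed here. The sources used here do not give the number of pupae per sample, the expression of the transgene by tissue or the genotype at the endogenous CG15710 gene. Whole animals mix all cell types, so a weak peak in many cells and a strong peak in few cells cannot be told apart.

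The files were 4 lists of peaks on genome build dm6, each peak with a summit (its highest point) and a signal, which is the authors' own value for that peak on a scale that is not stated. Each replicate had a list of 30000 peaks, as did the pooled replicates. The list of 8483 peaks had passed the irreproducible discovery rate (IDR) step, which scores how alike peaks rank between replicates, and it was exactly the strongest 8483 peaks of the pooled list. Ranks below count from 1 for the strongest signal within a list, and the lists hold no read counts, so sequencing depth is unknown.

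The sequences of 7 summits, 121 bp each, are shown because they hold the strongest IDR peak of each stretch between the genes, the strongest 2 peaks of bowl, and the weak promoter peaks of drm and sob that stayed outside the IDR list. They were read from the RefSeq copy of the dm6 assembly on the plus strand. The strongest peak upstream of drm lay in chr2L:3534590-3534710, the one between drm and sob in chr2L:3552914-3553034, and the one between sob and odd in chr2L:3594133-3594253. The bowl promoter peak lay in chr2L:3771433-3771553 and the bowl intron peak in chr2L:3776706-3776826. The weak promoter peaks lay in chr2L:3540057-3540177 for drm and chr2L:3580770-3580890 for sob. Capitals mark matches to the short sequences searched for, on either strand (GAGAG for the GAGA factor, which reads CTCTC on the other strand, GCCAT for the protein Pleiohomeotic, and CGATA for the protein BEAF-32, which reads TATCG on the other strand).
Upstream of drm: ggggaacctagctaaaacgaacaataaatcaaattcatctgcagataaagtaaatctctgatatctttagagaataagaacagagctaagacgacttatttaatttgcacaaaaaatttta
Between drm and sob: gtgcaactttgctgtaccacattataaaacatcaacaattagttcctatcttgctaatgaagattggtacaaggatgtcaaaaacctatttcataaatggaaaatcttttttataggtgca
Between sob and odd: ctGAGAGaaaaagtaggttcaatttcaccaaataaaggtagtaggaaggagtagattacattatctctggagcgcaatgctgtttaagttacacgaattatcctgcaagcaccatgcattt
bowl promoter: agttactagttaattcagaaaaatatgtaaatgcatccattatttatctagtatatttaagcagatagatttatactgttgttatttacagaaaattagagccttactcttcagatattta
bowl intron: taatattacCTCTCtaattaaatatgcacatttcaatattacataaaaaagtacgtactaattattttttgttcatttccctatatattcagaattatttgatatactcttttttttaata
drm promoter, weak peak: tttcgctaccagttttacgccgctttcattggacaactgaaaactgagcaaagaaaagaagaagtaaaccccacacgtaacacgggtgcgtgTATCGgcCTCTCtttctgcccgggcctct
sob promoter, weak peak: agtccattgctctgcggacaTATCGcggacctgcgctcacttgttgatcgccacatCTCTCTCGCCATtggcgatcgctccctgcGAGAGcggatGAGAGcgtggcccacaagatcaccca
The bowl sequences were 24.0% and 19.0% G plus C, and the 3 sequences around drm, sob and odd were between 29.8% and 38.0%. The weak promoter sequences stood higher, at 49.6% for drm and 59.5% for sob.

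The genes drm, sob and odd had their IDR peaks between the genes and none inside them. Of the 17 IDR summits in this neighbourhood, 1 lay upstream of drm, 9 between drm and sob and 7 between sob and odd. By annotation 14 were intergenic and 2 fell in exons of the noncoding genes lncRNA:CR44309 and lncRNA:CR43823. The other 1 counted as a promoter peak, within 500 bp of the start site of CG43815, a short gene between drm and sob. Its summit at 3576695 lay 485 bp downstream of that start site and past the end of CG43815 at 3576623. The nearest of the 17 to a start site (TSS) of drm, sob or odd was 2127 bp away, the median distance was 8.07 kb, and 9 of the 17 lay more than 5 kb from all 3 gene bodies. drm spans positions 3539247 to 3548423 on the plus strand, sob spans 3578013 to 3580769 and odd spans 3604224 to 3606756, both on the minus strand. The gaps between neighbours are 29.6 kb from drm to sob and 23.5 kb from sob to odd.

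**Figure D1:**
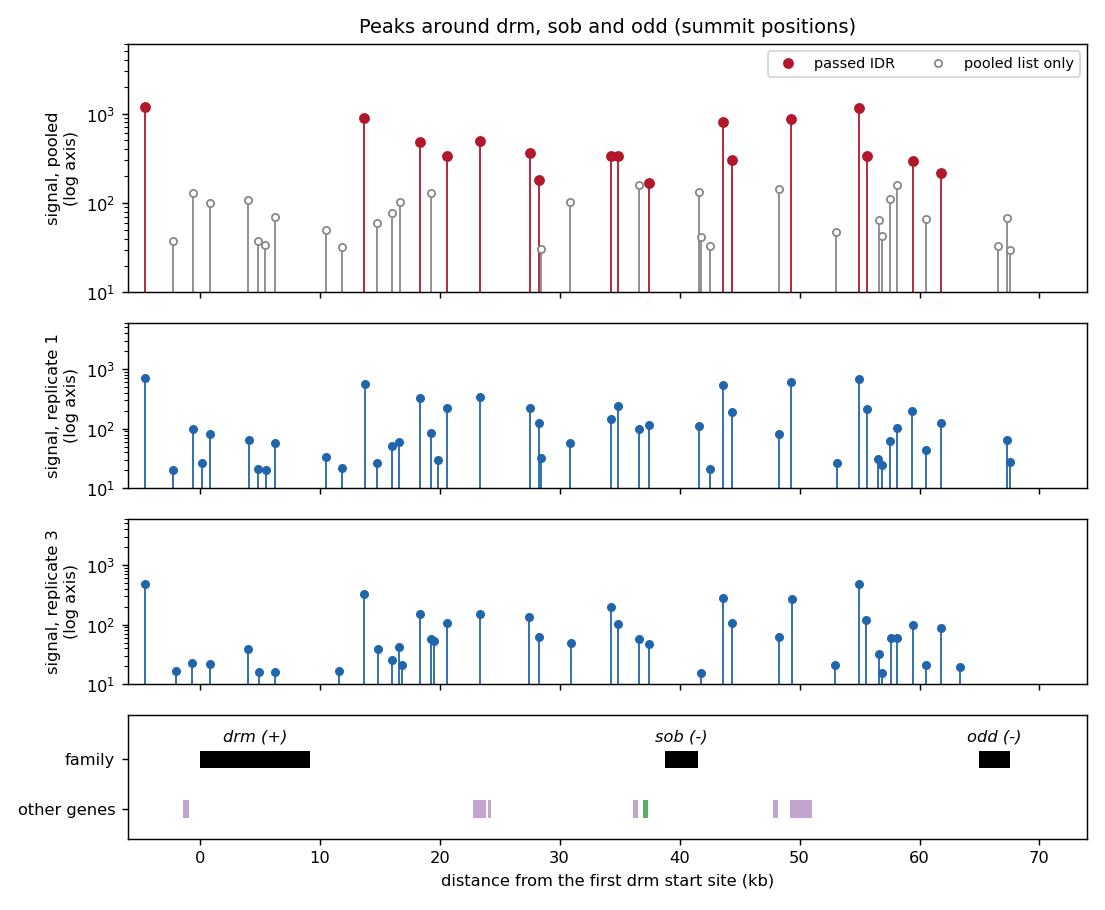
Peaks around drm, sob and odd. The x axis is distance in kb, the y axes are the deposited signal of each summit on log axes in the pooled list and in each replicate, and genes are drawn underneath (black, family; green, other protein-coding; purple, noncoding). In the pooled panel red points passed IDR and open points did not, and blue points are the replicates' own peaks. The 17 IDR summits sit upstream of drm and in the gaps between the genes, with none inside drm, sob or odd.

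The strongest of these peaks had its summit at 3534650, 4597 bp upstream of the first drm TSS, with a signal of 1189 and rank 810 in the IDR list. Its signal was 710.0 in replicate 1 (rank 860) and 477.7 in replicate 3 (rank 801). The peak at 3594193, between sob and odd and 12.6 kb from the odd TSS on its downstream side, was almost as strong, with a signal of 1166 and rank 839. It had signals of 689.8 in replicate 1 and 481.3 in replicate 3. These were the pair of peaks around drm, sob and odd that ranked among the strongest 1000 of the IDR list, and both ranked between 788 and 901 in each replicate.

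Behind them came the peak at 3552974 with a signal of 892.3, which lay beyond the end of drm and 13.2 kb downstream of its second TSS. The peak at 3588550, in an exon of lncRNA:CR43823 and 7781 bp upstream of sob, had a signal of 864.4. The peak at 3582896, 2127 bp upstream of the sob TSS, had a signal of 806.4 and was the IDR peak nearest to that TSS. In replicate 1 these 3 peaks had signals of 568.0, 597.7 and 532.5, and in replicate 3 signals of 321.8, 269.9 and 283.1. All 3 stood above the median signal of 329.4 over all IDR peaks.

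The other 12 peaks of this neighbourhood were weaker, with signals between 169.5 and 493.8. They included the peak at 3562570 in an exon of lncRNA:CR44309, with a signal of 493.8, and the peak at 3601058, 5698 bp downstream of the odd TSS, with a signal of 218.1 and rank 6365. The latter was the only IDR summit within 5 kb of odd. Over all 17 peaks the median signal was 338.8 and 12 were above the IDR median.

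Summits in the gaps were spaced by a median of 2627 bp between drm and sob, over a range of 587 to 6070 bp, and by a median of 3099 bp between sob and odd, over 667 to 5643 bp. The median over neighbouring IDR summits in the whole genome was 4891 bp. Close pairs occurred in both neighbourhoods: 10 of the 25 summits had another IDR summit within 1 kb, in 5 pairs, of which 4 lay between drm, sob and odd and 1 in bowl. Over all IDR summits 28.3% had one within 1 kb, a distance chosen after the positions had been seen. The closest pair, at 3573556 and 3574143, was 587 bp apart and differed in its order between replicates. The summit at 3573556 had a signal of 143.7 in replicate 1 and 194.6 in replicate 3, and the one at 3574143 had 242.3 and 101.2.

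The whole stretch from drm to odd, 67.5 kb, held 16 IDR summits, or 2.37 per 10 kb against 0.634 per 10 kb over the genome. When the genome was divided into 1980 stretches of that length, 2.47% held at least as many summits, the median was 3 and the highest was 30. The 55.8 kb between drm and odd held the same 16 summits, and 1.13% of 2396 stretches of that length held as many. The genome rate and the stretches covered whole chromosome arms, parts without IDR summits included, where neighbouring summits lay up to 2020384 bp apart. The stretch from drm to odd was chosen with its peaks known, so its place in these distributions is a description.

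The promoters of drm, sob and odd held weaker peaks that did not pass IDR. An IDR summit within 500 bp of a TSS was found for bowl alone among the 4 genes, and for 24.6% of all protein-coding genes. In the pooled list, which goes down to rank 30000, all 4 genes had such a summit, as did 47.0% of protein-coding genes.

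At drm, the strongest pooled promoter summit lay 384 bp downstream of its second TSS, with a signal of 100.6 and rank 12325. It ranked 10009 in replicate 1 and 21023 in replicate 3, with −log10 q-values of 4.44 and 0.577 there. Its −log10 q-value in the pooled list was 3.44, against 4.37 for every IDR peak of the neighbourhoods. Pooled peaks outside the IDR list also reached 4.37, among them the bowl intron peak at 3774024, so this value did not separate the lists. At sob, the summit 61 bp upstream of the TSS had a signal of 133.0, rank 9832 and a −log10 q-value of 4.37. The nearest replicate 1 summit, 100 bp upstream, had a signal of 112.8, rank 7565 and a −log10 q-value of 4.44. The nearest replicate 3 summit, 222 bp upstream, had a signal of 15.6, rank 28209 and a −log10 q-value of 0.221. This replicate 3 summit lay 161 bp from the pooled one. At odd, the strongest promoter summit was 181 bp inside the gene, with a signal of 68.1, rank 16442 and a −log10 q-value of 1.85. Replicate 1 held it at rank 12671 with a signal of 63.7, and replicate 3 had no peak there.

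At drm and sob the strongest promoter summit of replicate 1 ranked better than that of replicate 3, whose −log10 q-values were below 1. At odd replicate 1 alone held a promoter summit. Among the strongest 8483 peaks of replicate 1, sob and bowl had a promoter summit, against 24.3% of all protein-coding genes. Among the strongest 8483 of replicate 3, bowl had one, against 24.8% of genes. Replicate 1 put 46 summits in the neighbourhood of drm, sob and odd and replicate 3 put 41, out of 30000 in each, and the pooled list put 46. Inside the genes the pooled list had 5 summits in drm, 2 in odd and none in sob. The one at 3605799, in the coding sequence of odd, ranked 26852 and overlapped no peak of either replicate.

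bowl lies 164.9 kb beyond odd, at positions 3771700 to 3784121 on the plus strand, and is transcribed from 4 TSSs. It had IDR peaks at its promoter and inside the gene, where the other 3 genes had none. Of 8 IDR summits in its neighbourhood, 2 lay upstream, 5 inside introns and 1 downstream. The gene itself held 4.03 IDR summits per 10 kb.

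**Figure D2:**
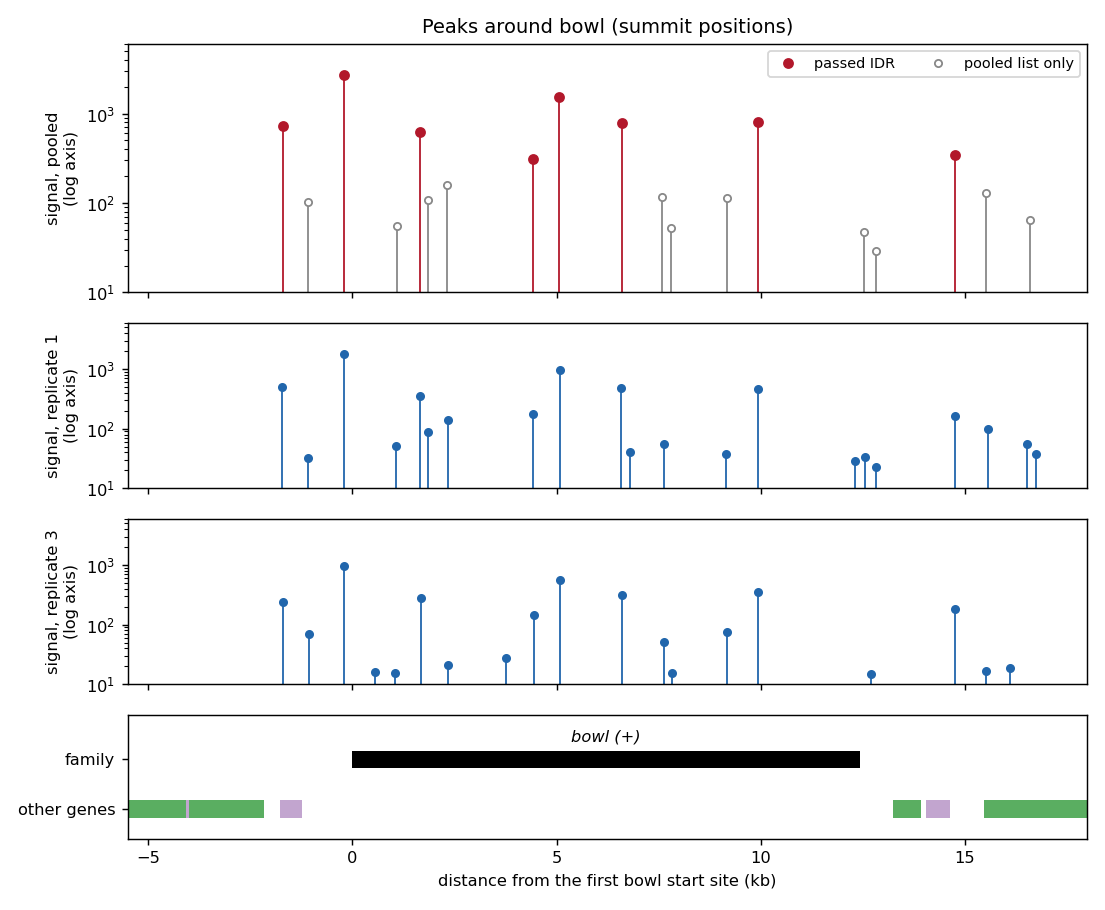
Peaks around bowl. The x axis is distance in kb, the y axes are the deposited signal of each summit on log axes in the pooled list and in each replicate, and genes are drawn underneath (black, family; green, other protein-coding; purple, noncoding). In the pooled panel red points passed IDR and open points did not, and blue points are the replicates' own peaks. The tallest point in each panel is the promoter peak, 207 bp upstream of the first bowl TSS, and 5 IDR summits lie in its introns.

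The promoter peak of bowl was the strongest of the family. Its summit at 3771493 lay 207 bp upstream of the first TSS, with a signal of 2720 and rank 125 of 8483. It had signals of 1786 in replicate 1, rank 100, and 960.2 in replicate 3, rank 161.

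The second strongest peak of bowl, at 3776766, lay in an intron 2172 bp upstream of the internal TSS at 3778938. Its signal was 1520 and its rank 518, with signals of 969.9 in replicate 1 and 551.2 in replicate 3. Closer to the internal TSS, 625 bp upstream, the summit at 3778313 had a signal of 794.1, and further into the gene the summit at 3781633 had a signal of 810.2. The summit at 3773357 had a signal of 623.1, and the summit at 3776122 had 308.7. A summit at 3769989, 1711 bp upstream of bowl and at the promoter of the noncoding gene lncRNA:CR43704, had a signal of 730.2. Downstream, the summit at 3786458 had a signal of 347.6 and lay 709 bp upstream of the start of bark, whose product is a component of epithelial cell junctions.

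The median signal of the 8 bowl peaks was 762.2, 7 of the 8 were above the IDR median, and 2 were among the strongest 1000. The median over the 17 peaks of the drm, sob and odd neighbourhood was 338.8. The 2 sets of signals overlapped, between 308.7 and 1189. The bowl peaks were also wider in the list, with a median width of 359 bp against 290 bp, and 348 bp over all IDR peaks. The weak peaks at 3567486 and 3576695 were both listed at 400 bp, a width that recurred among weak pooled peaks. How widths were set is not stated, so they are no measure of the extent of binding.

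At the edge of the list, the weakest IDR peak of the neighbourhoods was the one at 3576695 beside CG43815, with a signal of 169.5 and rank 8015. The strongest left out was at 3774024 in a bowl intron, with a signal of 158.2 and rank 8518 in the pooled list, and its rank was 6244 in replicate 1 and 21500 in replicate 3. At the edge of the windows, the nearest IDR summit left of the drm window was 954 bp outside it, with a signal of 205.5, and the nearest right of the bowl window was 388 bp outside, with a signal of 366.7.

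All 25 IDR peaks overlapped a peak in both replicates by at least 1 bp, as did 96.9% of all IDR peaks. Their summits lay close together: the distance from the pooled summit had a median of 4 bp in replicate 1, with a maximum of 35 bp, and of 5 bp in replicate 3, with a maximum of 91 bp. Of the 40 pooled peaks of the neighbourhoods outside the IDR list, 33 overlapped a peak in both replicates by the same rule, against 62.6% of all such peaks. By that rule 6 overlapped one in replicate 1 alone and 1 in neither. With summits within 100 bp required, 24 of the 40 were in both replicates. When the overlap had to cover at least 50% of each peak, 26 were. The share of all such peaks was taken for the 1 bp rule only.

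**Figure D3:**
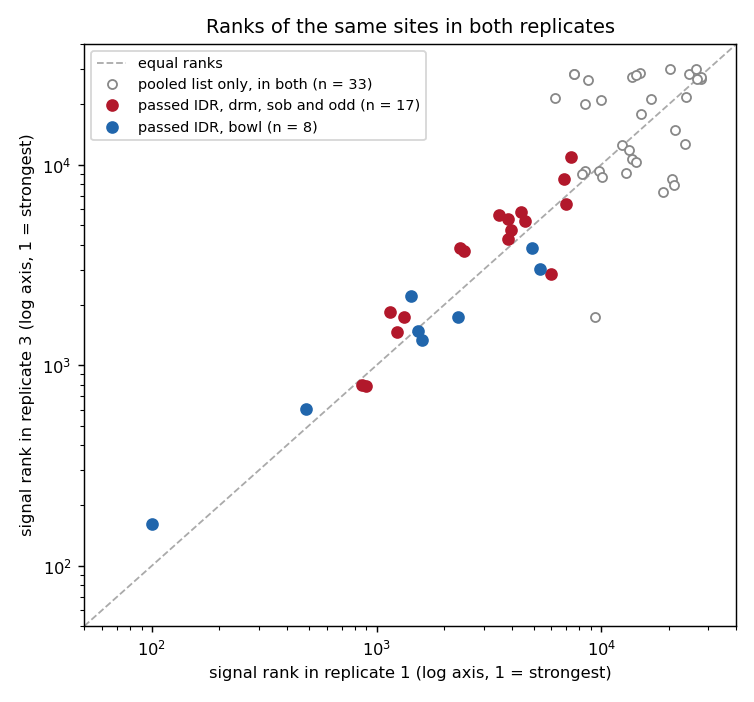
Signal rank of each site in replicate 1 (x, log axis) against replicate 3 (y, log axis), rank 1 being the strongest. Filled points are the 25 IDR peaks and open points are pooled peaks outside IDR that overlap a peak in both replicates by at least 1 bp. The dashed line marks equal ranks, and the bowl promoter peak is the point at 100 and 161.

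For each IDR peak the larger of its ranks in the replicates was divided by the smaller. Over the 25 peaks the median was 1.30 and the maximum 2.11, and over all IDR peaks with a summit within 100 bp in both replicates the median was 1.27. The better rank was in replicate 1 for 16 of the 25 peaks, against 47.9% of all such IDR peaks. Among those ranked better in replicate 3 were the peaks at 3573556, rank 5996 in replicate 1 and 2839 in replicate 3, and 3786458, rank 5368 and 3010. The peaks at 3557643, 3562570 and 3574143 went the other way, with ranks of 2457 and 3721, 2341 and 3833, and 3526 and 5605.

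Counted per gene, every member had at least 1 IDR summit in its body or within 5 kb, as did 57.4% of protein-coding genes. bowl had 8, sob 5, drm 2 and odd 1. Of all protein-coding genes 1.41% had at least as many as bowl, 4.58% as many as sob, 32.1% as many as drm and 57.4% as many as odd. The median over all genes was 1 and the highest was 36. In the pooled list the members had 19, 9, 11 and 5 summits in the order bowl, sob, drm, odd, so drm passed sob when weak peaks were counted. The counts were not scaled to gene length, which is 12.4, 2.76, 9.18 and 2.53 kb in the same order. The replicate lists gave 21, 8, 12 and 4 summits in replicate 1 and 19, 7, 9 and 3 in replicate 3, in that order.

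**Figure D4:**
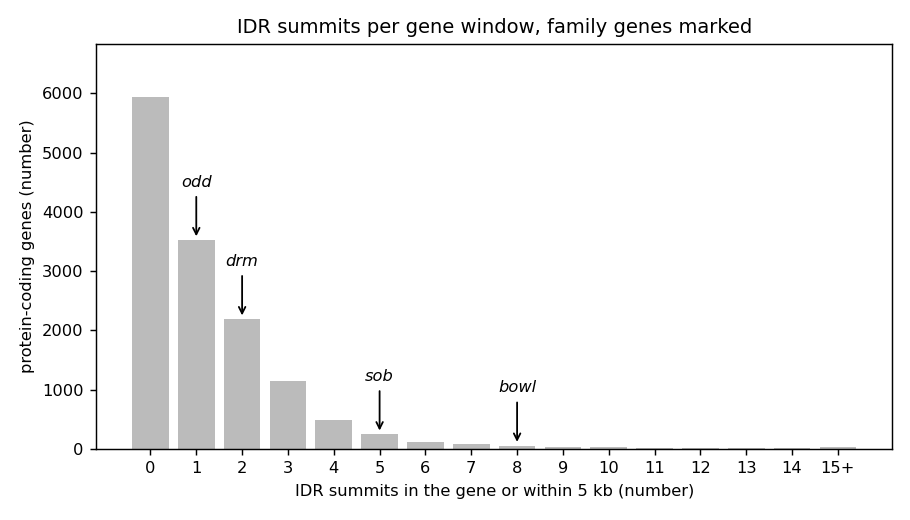
Number of IDR summits in each protein-coding gene or within 5 kb (x) against the number of genes with that many (y). The family genes are marked at 1 (odd), 2 (drm), 5 (sob) and 8 (bowl), over a median of 1 for all genes.

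The genes whose peak profile was most like each member were found over both replicate lists from the number of summits per gene window and the rank of the strongest, without genes that share a summit with it. For drm these were Ndfip and TP53INP, at distances of 0.191 and 0.220 on the summed scale used, where 0 means equal. For sob they were CG11403 at 0.0678 and Lsp2 at 0.0803, and for odd Pcd at 0.00422 and Hel25E at 0.0742. For bowl they were Mi-2 at 0.171, with 21 and 19 summits and best ranks of 138 and 150 in replicates 1 and 3, and Su(Tpl) at 0.312. Their nearness in replicate peak numbers and ranks is what they were chosen by, and it did not always extend to the IDR list. There CG11403 had 1 summit against 5 for sob and Lsp2 had 3, Ndfip had 4 and TP53INP 3 against 2 for drm, and Mi-2 and Su(Tpl) had 6 each against 8 for bowl. Pcd and Hel25E had 1 each, as did odd.

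The bases around the summits were compared with all IDR summits. In windows reaching 150 bp to either side of the summit, the median G plus C share was 40.2% over the 17 peaks of the drm, sob and odd neighbourhood, over a range of 33.2% to 45.8%, and 33.4% over the 8 peaks of bowl, over 28.9% to 39.5%. All IDR windows had a median of 36.5%. The bowl median lay below that of all IDR windows and the other median above it, and the ranges of the neighbourhoods overlapped. G plus C was lower around the summits than in the flanks. In the central 21 bp it was 31.4% ± 10.8 (SD, n = 17) at drm, sob and odd and 26.8% ± 11.1 (SD, n = 8) at bowl, against 32.0% over all IDR peaks. The lowest bowl mean was not at the summit but 60 bp to its right, at 18.5% ± 13.1 (SD, n = 8). At 300 bp to the left the shares were 51.3% at drm, sob and odd and 44.6% at bowl, against 45.4% over all IDR peaks. At 300 bp to the right they were 44.3% and 42.3%, against 45.2%. Nearer on the right, from 120 to 280 bp, the drm, sob and odd mean was above that of all IDR peaks. It was 54.3% against 44.9% at 240 bp and 49.3% against 45.4% at 280 bp. The weak promoter peaks of drm, sob and odd had 51.8%, 52.2% and 49.5% G plus C over the same width. These shares were above 97.8%, 98.0% and 96.0% of all IDR windows. Those windows are of stronger peaks in every annotation class, and the weak promoter peaks of other genes were not measured.

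**Figure D5:**
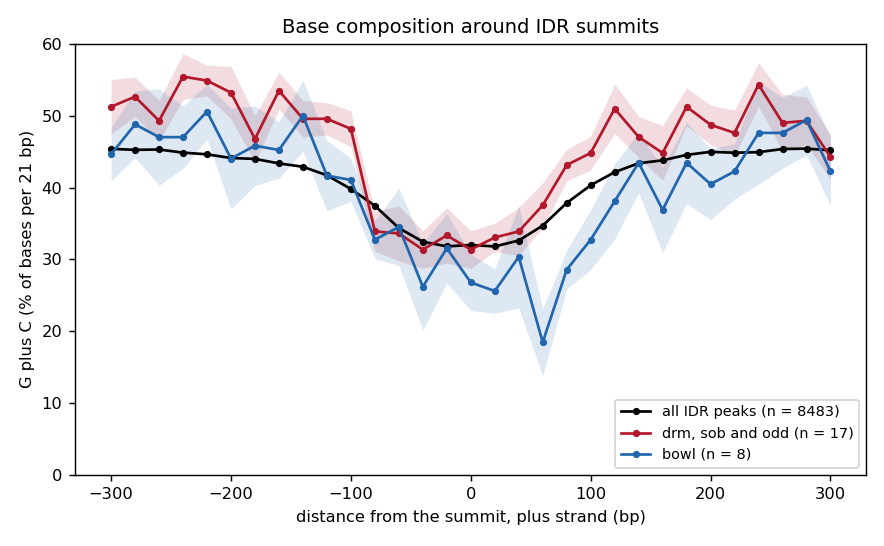
G plus C share of bases (y, % per 21 bp) against distance from the summit on the plus strand (x, bp). Lines are means over the 17 drm, sob and odd peaks, the 8 bowl peaks and all IDR peaks. Bands of 1 standard error are drawn for the drm, sob and odd line and the bowl line only. The lines are at 31.4%, 26.8% and 32.0% at the summit, below their values at 300 bp to either side. The bowl line is lowest 60 bp to the right, at 18.5%.

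Short sequences known from other Drosophila factors were searched for in the same windows on both strands, as a description of their letters. GAGAG, the core of the GAGA factor site, occurred in 13 of the 25 windows, 10 of 17 at drm, sob and odd and 3 of 8 at bowl, and in 34.8% of all IDR windows. GCCAT, the core bound by the Polycomb-group protein Pleiohomeotic, occurred in 9 of 25 against 36.4%, and CGATA, bound by the insulator protein BEAF-32, in 7 of 25 against 32.4%. GTGGGAA, bound by the Notch effector Suppressor of Hairless, occurred in 1 of 25 against 3.47%. The E-box CACGTG occurred in 2 against 2.73%. The nuclear receptor sequence AGGTCA occurred in 1 against 5.58%. The AP-1 sequence TGACTCA occurred in 1 against 2.58%. The remaining 5 sequences were CAGTAGC for the odd-skipped family itself, TATCGATA for the promoter factor DREF, within which the BEAF-32 sequence lies, CAGGTAG for the early activator Zelda, GGTCACACT for the promoter factor M1BP and AGATAAG for the GATA factors. They occurred in none of the 25, and in between 1.19% and 4.02% of all IDR windows. In windows reaching 50 bp to either side GAGAG was left in 1 of 25, GCCAT in 3 and CGATA in 3, against 9.74%, 11.9% and 12.0% of all IDR windows.

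Genes that work with the family were listed in 4 sets and read against the share of protein-coding genes with an IDR summit at a promoter, which was 24.6%. Of 12 pair-rule and segmentation genes 1 had one: hry, the pair-rule gene hairy, with a signal of 232.5. The pair-rule genes eve, run and ftz had none. Of 8 partners and regulators 2 had one: gro, the corepressor Groucho, with a signal of 1534 and rank 505, and lin, which encodes Lines, with a signal of 173.2 and rank 7846. The Notch receptor N and its ligands Delta and Ser had none at the promoter and 6, 3 and 8 IDR summits in their gene windows. The median over all protein-coding genes was 1, and these window counts were not scaled to gene length.

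Of 15 genes of the leg axis and joints 4 had a promoter peak: Dll, a homeobox gene of the distal leg, with a signal of 327.2, dac, which acts in the middle of the leg, with 248.1, exd, a Hox cofactor, with 180.6, and rn, a zinc-finger gene of the tarsus, with 180.2. The genes hth, al and B-H1 had none. In its window hth had 13 IDR summits against a median of 1 over all genes, again not scaled to gene length. Of 11 gut and pericardial genes 3 had a promoter peak: the heart gene tin with a signal of 1514 and rank 522, cad with 232.9 and fkh with 166.3. The genes byn, hkb and tll had none. The shares in the leg and gut sets were 26.7% and 27.3%, near the 24.6% over all genes, and 8.33% in the segmentation set.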

How the data were processed

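Peak lists from ChIP-seq of CG15710-GFP in whole pupae were used as the authors deposited them: 1 per replicate, 1 on the pooled replicates and 1 after IDR, on dm6. Per the deposited file descriptions, the replicate and pooled lists were made with an additional input whose content is not stated, and the IDR list from those 3 lists. Aligner, peak caller and IDR threshold were not given in the sources used here. The signal of each peak is a score that the authors deposited on an unstated scale, and each −log10 q-value is the caller's own, as deposited by the authors. Signals were compared within a list only. The 2 replicates are biological replicates per the labels, and no read counts or depths are in the lists.

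Summits were placed on Ensembl release 115 (BDGP6.54) genes, with 23581 distinct TSSs, and sequence was read from the RefSeq copy of the assembly. A promoter was 500 bp either side of a TSS. All work used Python 3.11.15, pandas 2.3.3, numpy 2.4.6 and matplotlib 3.10.9, and the counting code was tested on simulated data. The members and lists were chosen with earlier results of these data known. Genes named were the members, the genes holding or nearest to a neighbourhood peak, up to 4 bound and 3 unbound genes per list, and the 2 closest genes per member in the likeness measure. The symbols h, Dl and Dot of the lists were matched as hry, Delta and Ugt36A1. The likeness measure added the absolute differences in log2(1 + summits in the window) and in log10 rank of the strongest summit over both replicate lists. No test over members was made. Alternatives were other promoter and gene windows, a stricter list of 4241 peaks, each replicate's strongest 8483 peaks, other overlap rules and a sequence window of 50 instead of 150 bp to either side.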

Additional observations from a re-analysis of the deposited data

How the results depend on the processing

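Counts of neighbourhood peaks, 25 as reported, were 25 to 30 when the strongest 8483 peaks of 1 replicate replaced the IDR list. They were 19 in the stricter list, and 23 and 27 with gene windows of 2 and 10 kb. Members with a promoter peak numbered 1 to 2 over the single replicates, 2 without replicate 3. Members with a peak in the gene window fell from 4 to 2 with 2 kb. In windows reaching 50 bp to either side of the summit GAGAG was in 1 of 25 and the Pleiohomeotic sequence in 3, the BEAF-32 sequence in 3, the E-box in 1 and those of Suppressor of Hairless and AP-1 in 0. For promoter counts of the gene sets, segmentation genes, 1 as reported, numbered 0 to 2 over the single replicates and 0 in the stricter list. Partners, 2 as reported, numbered 2 to 3 over the single replicates, 1 in the stricter list, 1 with 250 bp and 4 with 1000 bp. Leg genes, 4 as reported, numbered 1 to 5 over the single replicates, 0 in the stricter list and 2 with 250 bp. Gut genes, 3 as reported, numbered 2 over each single replicate and 1 in the stricter list. The stricter list and narrower windows hold fewer peaks by construction; the cause of the replicate differences was not tested. In all, 49 alternatives, some of them given above, stayed within 1.5 times of the reported value, and 18 moved further. No paired analysis was possible because there was 1 group. The lists hold no read counts, so depth limits could not be computed, and a peak absent from a list of 30000 may lie below its last rank.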
